A study of Homo sapiens with 2 samples.

Results

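Lineage transcription factors set which genes a prostate epithelial cell keeps in use, and 8 of them were followed here in cells with and without a short hairpin RNA against NRP2. The 8 genes, taken by name and with no threshold on measured values, were FOXA1, HOXB13, GATA2, SPDEF, GRHL2, NR3C1, FOXA2 and ONECUT2. Each had a row in both deposited tables, 8 of 26475 listed symbols. The cells were C4-2B ENZR, an established line of human prostate cancer cells with resistance to enzalutamide, which blocks the androgen receptor. Both groups were grown in RPMI medium with 10% fetal bovine serum and 20 µM enzalutamide, and both went through lentiviral infection and antibiotic selection. The shControl library came from cells with a non-targeting hairpin, whose genotype is labelled WT, and the shNRP2 library from cells with a hairpin against the coding region of NRP2, a co-receptor for semaphorins and VEGF. Each group is 1 hairpin and 1 library, so replicate error is unknown, conditions cannot be compared by a p-value, and each difference is one between these 2 libraries.

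The androgen receptor is a nuclear receptor that reaches its binding sites in prostate cells with the help of pioneer factors, proteins that bind closed chromatin and open it. FOXA1, a forkhead protein, and GATA2, a zinc finger protein, are pioneers of that kind, and HOXB13, a posterior homeodomain protein, shares many of their sites. SPDEF, an ETS protein, and GRHL2, a grainyhead protein, maintain luminal and epithelial gene programmes. NR3C1, the glucocorticoid receptor, can occupy androgen receptor sites when that receptor is blocked, while FOXA2 and ONECUT2 are known from neuroendocrine prostate cancer. The receptor's own gene is not one of the 8 and is not analysed here.

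Levels are given as the authors' TMM-scaled CPM (read counts per library of a common size), and reads are whole reads recovered from them, 21052178 in the shControl and 22992304 in the shNRP2 library. NRP2 itself had 20 reads in the shControl library (0.974 CPM) and 7 in the shNRP2 library (0.330 CPM), a plain CPM ratio of 0.339 with a counting interval from 0.121 to 0.835. Intervals here are exact conditional binomial 95% intervals and cover counting error only. All 14 prostate luminal markers fixed for this check averaged 1 CPM or more. The highest was the prostate antigen FOLH1 at 1187 and 1053 CPM, while KLK3 was at 5.60 and 41.0 CPM. That bar is low: 4 of 8 fibroblast and smooth muscle, 2 of 6 neuroendocrine, 1 immune and 1 endothelial marker also passed it. The 5 basal markers summed to 0.292 CPM in the shControl and 0.896 CPM in the shNRP2 library. Neuroendocrine markers summed to 3.94 and 3.07 CPM over 6 genes, with CHGB at 0 reads in the shControl and INSM1 at 0 in the shNRP2 library. Endothelial markers (5 genes) summed to 4.09 and 3.87 CPM, immune markers (6 genes) to 7.35 and 11.0 CPM, and fibroblast and smooth muscle markers (8 genes) to 48.7 and 39.1 CPM, most of it COL1A1.

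The DNA just before the start sites is shown for FOXA1 and SPDEF, the compared factors with the largest relative decreases, and for GATA2, which stayed nearly level. The sequences are RefSeq's, in build GRCh38.p14, on the strand of the gene, while the expression tables were made with build hg19. RefSeq windows were found for 5 of the 8 genes, 12 windows in all, and the windows of a gene differ where it has several starts. Capitals mark matches, on either strand, to a forkhead motif (TGTTTNC or TATTTNC) or to the core of the hypoxia response element (ACGTG). The FOXA1 sequence, chr14:37595351-37595499 on the minus strand, is the part of its 250-base window that no GENCODE transcript of the gene covers. The SPDEF sequence is chr6:34556330-34556579, minus strand, and the GATA2 sequence is chr3:128493202-128493451, minus strand.
FOXA1: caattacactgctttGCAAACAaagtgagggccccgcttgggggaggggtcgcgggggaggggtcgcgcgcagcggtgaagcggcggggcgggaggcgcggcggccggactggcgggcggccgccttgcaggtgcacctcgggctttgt
SPDEF: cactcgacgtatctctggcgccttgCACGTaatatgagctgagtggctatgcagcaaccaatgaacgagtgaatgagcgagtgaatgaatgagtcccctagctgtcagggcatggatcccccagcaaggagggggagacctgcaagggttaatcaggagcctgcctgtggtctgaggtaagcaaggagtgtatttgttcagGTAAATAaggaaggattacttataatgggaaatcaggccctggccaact
GATA2: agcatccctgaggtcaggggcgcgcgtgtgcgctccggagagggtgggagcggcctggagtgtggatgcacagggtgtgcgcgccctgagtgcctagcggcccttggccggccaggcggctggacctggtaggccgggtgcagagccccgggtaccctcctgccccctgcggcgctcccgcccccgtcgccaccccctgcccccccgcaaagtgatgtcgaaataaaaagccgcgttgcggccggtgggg
FOXA1 held 1 forkhead match, GCAAACA, which begins 235 bases before the RefSeq start, and SPDEF held 1, GTAAATA, 49 bases before its own. The last 101 bases before the FOXA1 start are covered by a transcript and are not printed. One or the other forkhead motif was present in 24.9% of all 35116 windows of 250 bases in the RefSeq table. SPDEF also held the hypoxia core, present in 18.5% of windows. The GATA2 window held no match to any of the 8 motifs searched, and neither did its second window nor that of ONECUT2. Besides these 3, the motifs were AGATAA for GATA factors, found in 9.17% of all windows, and AGAACA for steroid receptors, in 12.4%. The HOX13 motif CAATAAA was found in 3.67% of windows, the grainyhead motif AACNNGTT in 3.0% and the ONECUT motif ATCAAT in 5.58%. Of the 7 NR3C1 windows, 1 held both forkhead motifs and 1 the grainyhead motif. All 250 bases of the window with the forkhead motifs lie within a GENCODE transcript of the gene. A match of letters is no evidence of binding. G and C made up 67.2% of the FOXA1 window, 50.8% of the SPDEF window and 72.8% of the GATA2 window, against a median of 58% over all windows.

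Differences between the libraries were small for most of these factors, and FOXA1 stood lower in the shNRP2 library by the widest margin of the set. Of the 8 genes, 6 averaged 1 CPM or more over both libraries and were compared; NR3C1 and FOXA2 lay below it. None of the 6 was at least 1.5-fold higher or lower on the log2(CPM + 1) scale, the fold used here to call a difference. Of all 13316 genes compared, 9.35% passed that fold, 5.78% higher and 3.57% lower. At 2-fold none of the 6 passed either, and 1.98% of all genes did, 1.46% higher and 0.526% lower. On that scale 4 of the 6 were lower and 2 higher, with a median log2 change of -0.14 against 0.03 over all genes compared. The whole-transcriptome split leaned to higher genes (61.8% of calls) and turned to 47.6% when both libraries were scaled to equal totals.

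**Figure D1:**
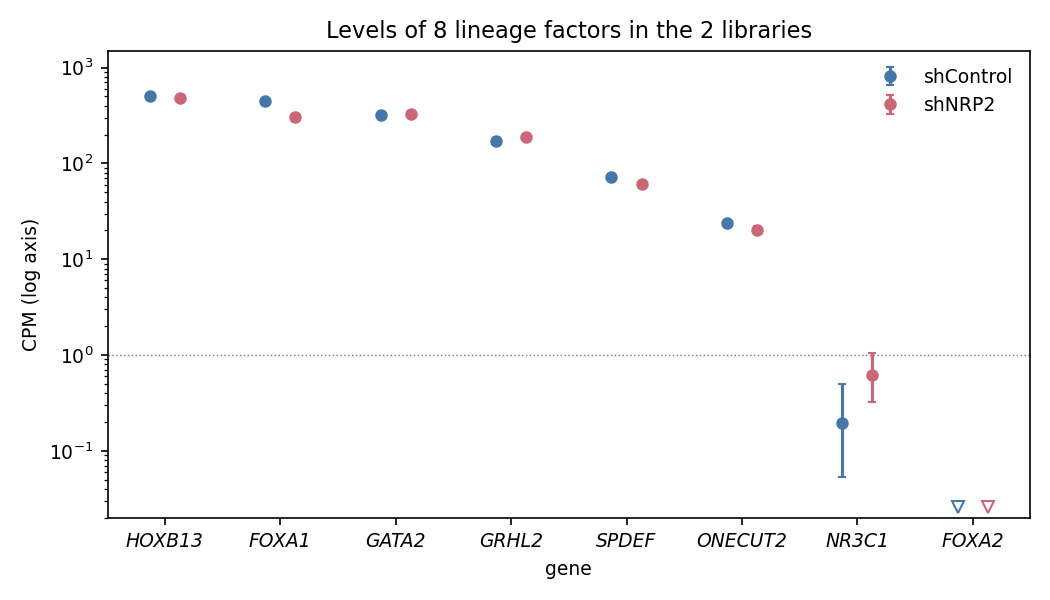
Level of each of the 8 factors in CPM (log axis) in the shControl (blue) and shNRP2 (red) library, 1 library each, with exact Poisson 95% counting intervals; open triangles stand for 0 reads and the dotted line for 1 CPM. FOXA1 was at 453 and 302 CPM, and the other 5 factors above the line differed less between libraries.

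FOXA1 stood at 453 CPM in the shControl library (9301 reads) and 302 CPM in the shNRP2 library (6406 reads). The shNRP2 level was 1.5-fold lower, with a counting interval from 1.45 to 1.55, and the log2 change of -0.58 lay just inside the 1.5-fold line. A change as low or lower was seen in 3.66% of all genes compared. Among the 2567 genes that averaged 100 CPM or more, a band chosen after the value of FOXA1 was seen, 22 genes (0.857%) were as low or lower. Scaling moved it across the line: the log2 change was -0.66 with equal library totals, -0.66 with quantile normalization, -0.61 with the median gene set to 0 and -0.61 with TMM factors recomputed from the reads, and all 4 passed 1.5-fold.

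HOXB13 had the highest CPM of the 8 factors in both libraries, 511 CPM in the shControl (10494 reads) and 486 CPM in the shNRP2 library (10303 reads). Its CPM ratio was 0.951 (0.926 to 0.977), so the decrease was small though larger than counting error. GATA2 was at 323 and 327 CPM, a ratio of 1.01 (0.980 to 1.05) that counting error alone spans. Its log2 change of 0.02 turned to -0.06 with equal library totals, -0.05 with quantile normalization, -0.01 with the median gene set to 0 and -0.01 with recomputed TMM factors, so GATA2 has no direction that holds under every scaling. These 3 pioneer-associated factors were the most abundant of the set, and FOXA1 had the lowest ratio of them. HOXB13 reached a log2 change of -0.15 with equal library totals and -0.17 with quantile normalization.

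SPDEF stood at 72.5 CPM (1490 reads) in the shControl and 60.4 CPM (1281 reads) in the shNRP2 library. The ratio was 0.833, with an interval from 0.772 to 0.898, and 16.4% of all genes compared had a log2 change as low as its -0.26. GRHL2 went the other way, at 170 CPM (3492 reads) and 189 CPM (4001 reads). Its ratio of 1.11 (1.06 to 1.16) was the highest of the 6, and its log2 change was between 0.07 and 0.15 under every scaling and pseudocount tried. ONECUT2, a homeobox factor of the CUT class, was at 23.6 CPM (485 reads) and 20.3 CPM (430 reads). Its ratio was 0.859, and the interval from 0.753 to 0.980 came close to no difference.

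**Figure D2:**
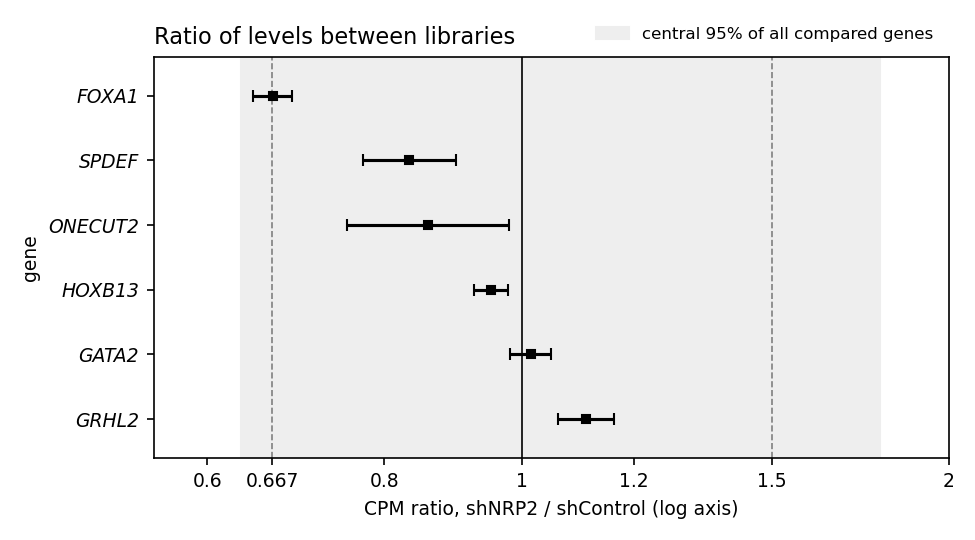
CPM ratio of shNRP2 to shControl (log axis) for the 6 compared factors, with exact conditional binomial 95% intervals. The grey band holds the central 95% of all genes compared on the log2(CPM + 1) scale, and dashed lines mark 1.5-fold; FOXA1 at 0.667 lies at the lower line, while the other 5 lie between 0.833 and 1.11.

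NR3C1 and FOXA2 were near or at 0. NR3C1 had 4 reads in the shControl (0.195 CPM) and 13 reads in the shNRP2 library (0.613 CPM). The ratio of 3.15 had an interval from 0.973 to 13.3, which includes no difference, so a change of the glucocorticoid receptor gene was not detectable at this depth. FOXA2 had 0 reads in both libraries, which allows up to 0.146 CPM in the shControl and 0.141 CPM in the shNRP2 library. Its neighbours LINC00261 and LNCNEF, listed under the older symbol LINC01384, were also at 0 reads in both.

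Counting intervals lay clear of no difference for 5 of the 6 compared factors, 4 lower and 1 higher. The same held for 56.8% of all genes compared (24.0% lower, 32.7% higher). These shares are not at like depth, because intervals narrow as reads rise. In the shControl library FOXA1, HOXB13, GATA2 and GRHL2 were at level percentiles from 90.8 to 98.3 of all genes compared. An exact conditional binomial test on the reads, which compares these 2 libraries and not the conditions, called FOXA1, HOXB13 and SPDEF lower and GRHL2 higher at a Benjamini-Hochberg adjusted p under 0.05. It called 7163 of the 18158 genes with any read, and 50.7% of the 13316 genes compared.

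Shares of reads inside a library do not depend on a scaling factor applied to the whole library. FOXA1 took 29.2% of the reads of the 8 genes in the shControl library (exact binomial interval 28.7% to 29.7%) and 21.8% (21.3% to 22.3%) in the shNRP2 library. HOXB13 took 32.9% and 35.1%, GATA2 20.8% and 23.6%, and GRHL2 10.9% and 13.6%. A lower FOXA1 share raises the other shares by arithmetic, so these rises are not gains in level. The CPM ratio was 0.951 for HOXB13, 1.01 for GATA2 and 1.11 for GRHL2. SPDEF had 4.67% and 4.36%, and ONECUT2 had 1.52% and 1.46%, with overlapping intervals for each. The CPM ratio of FOXA1 to GATA2 went from 1.40 to 0.923, and that of FOXA1 to GRHL2 from 2.66 to 1.60.

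**Figure D3:**
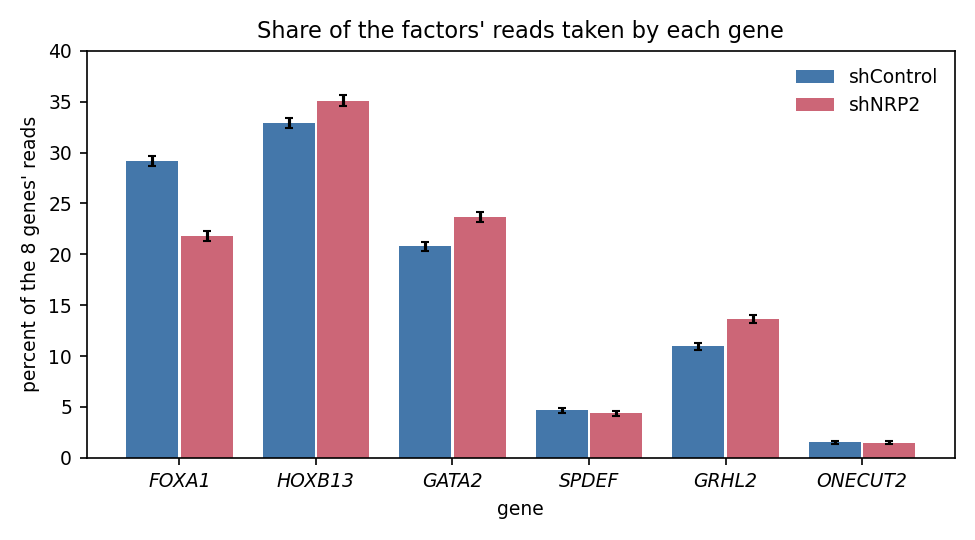
Percent of the reads of all 8 factors that fell on each of the 6 compared factors, in the shControl (blue) and shNRP2 (red) library, with exact binomial 95% intervals. The FOXA1 bar is at 29.2% and 21.8%, and the bars of HOXB13, GATA2 and GRHL2 are higher in the shNRP2 library.

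Levels of different genes were compared per kb of transcript, with the median protein-coding transcript length in GENCODE release 29. Per kb, GATA2 came first in the shControl library at 172 CPM per kb, FOXA1 next at 158 and HOXB13 after it at 147, with counting intervals that did not overlap. In the shNRP2 library GATA2 was at 174 CPM per kb, HOXB13 at 140 and FOXA1 at 106, so FOXA1 and HOXB13 had changed places. Below them, in both libraries, came GRHL2 (46.1 and 51.2 CPM per kb), SPDEF (38.6 and 32.1) and ONECUT2 (1.46 and 1.26), whose transcript of 16.1 kb is the longest of the set. NR3C1 followed at 0.0600 and 0.189 CPM per kb. The place of GATA2 rests on its transcript length: with the longest transcript, 3.37 kb in place of 1.88 kb, it stood at 95.9 and 97.2 CPM per kb and came below both FOXA1 and HOXB13 in each library. FOXA1 and HOXB13 have 1 protein-coding transcript each in that annotation, so the choice of transcript does not bear on their exchange of places. It does rest on the division by length, since by CPM alone HOXB13 was above FOXA1 in both libraries.

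**Figure D4:**
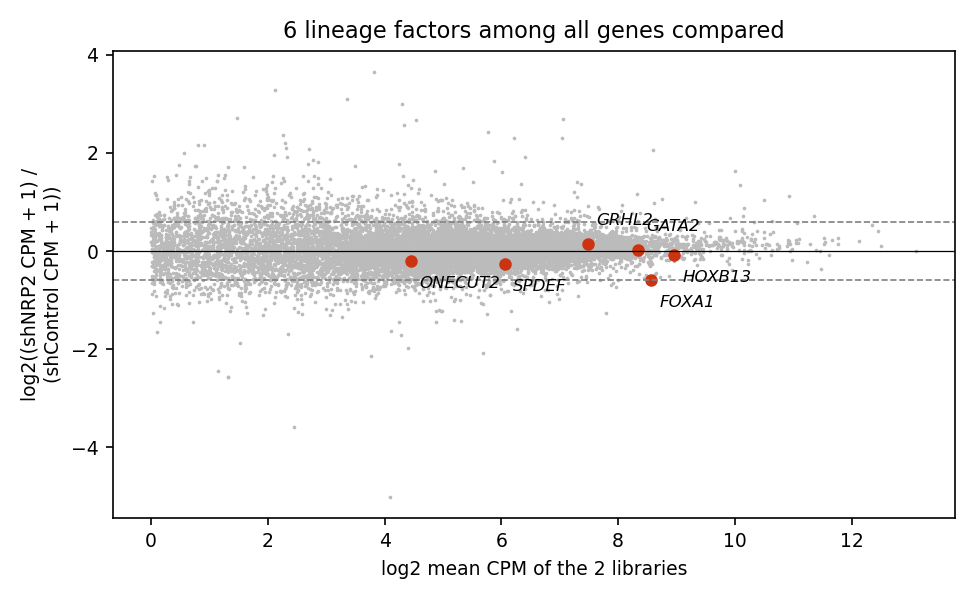
Log2 change on the log2(CPM + 1) scale against log2 mean CPM for the 13316 genes compared (grey points), with the 6 compared factors in red and dashed lines at 1.5-fold. FOXA1 lies at the lower edge of the cloud for genes of its level, and the other 5 lie inside it.

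Among relatives of FOXA1, the paralog FOXA3, also a pioneer factor, had 2 reads in the shControl and 1 in the shNRP2 library, so nearly all reads of the FOXA class came from FOXA1. Over 42 other forkhead genes 17 were compared, 2 of them higher and 0 lower, and their median log2 difference was 0.02. The higher genes were FOXO1, a factor restrained by insulin signalling, at 2.19 and 5.71 CPM, and FOXD3, at 0.341 and 1.79 CPM, which averaged 1 CPM only through the shNRP2 library. Neither was counted with a pseudocount of 5 CPM or a mean of at least 5 CPM, where the higher count was 0. FOXJ2, chosen after its value was seen, was as low as FOXA1 at 73.9 and 49.0 CPM (log2 change -0.58), and under each of the 4 other scalings 1 forkhead relative was past 1.5-fold lower. Counting intervals put 6 of the 17 compared relatives higher and 5 lower, against 32.7% and 24.0% of all genes compared. FOXM1, a driver of mitotic genes, was at 301 and 273 CPM, and FOXK2 at 137 and 142 CPM. FOXA1 held 28.5% of the reads of the whole family in the shControl and 22.4% in the shNRP2 library. The next gene on 1 side of FOXA1, TTC6, was at 56.3 and 74.7 CPM, a ratio of 1.33 (1.23 to 1.43) in the opposite direction, and MIPOL1 on the other side was at 14.9 and 16.2 CPM.

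GATA2 dominated its family, with 77.8% of the reads of GATA genes and TRPS1 in the shControl and 84.6% in the shNRP2 library. TRPS1, a GATA-type repressor, was the only 1 of 3 compared relatives past 1.5-fold, at 80.2 and 46.7 CPM, 1.72-fold lower (1.58 to 1.86). GATA6 was level at 10.3 and 10.4 CPM, GATA3 had 2 and 0 reads, and the median log2 change of the 3 was 0.01. Fewer TRPS1 reads raise the share of GATA2 by arithmetic, and the CPM ratio of GATA2 was 1.01. GATA2-AS1, a long noncoding RNA that overlaps GATA2, was at 47.8 and 35.3 CPM, a ratio of 0.740 (0.672 to 0.814). No source used here gives the strand setting of the counting. Any reads from bases that GATA2 and GATA2-AS1 share therefore cannot be assigned by strand, and overlap of their exons was not examined.

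HOXB13 held 90.9% and 91.4% of the reads of the HOXB cluster and the other HOX13 paralogs. Of 7 compared relatives, 2 were higher and 1 lower, with a median log2 change of -0.05: HOXD13 had 19 and 46 reads and averaged 1 CPM only through the shNRP2 library. HOXB9 was at 3.89 and 6.37 CPM and HOXB5 at 3.07 and 1.46 CPM, and with a pseudocount of 5 CPM the list had 0 higher and 0 lower. HOXC13 was at 25.9 and 19.2 CPM, and HOXA13 had 2 and 0 reads. PRAC2, the gene next to HOXB13, was level at 17.6 and 17.5 CPM. Among 10 compared partners of HOX and GATA proteins, 0 were higher and 1 lower, and their median log2 change of -0.23 lay below that of all genes. LDB1, a bridging protein of GATA complexes, was at 103 and 88.5 CPM, and PBX2, a homeodomain cofactor of HOX proteins, at 47.0 and 44.2 CPM.

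The ETS relatives of SPDEF included a factor far more abundant than SPDEF itself. EHF, an epithelial ETS protein, was at 605 CPM in the shControl and 903 CPM in the shNRP2 library, 1.49-fold higher (1.46 to 1.53), with a log2 change of 0.58 just short of 1.5-fold. Of 17 compared ETS genes, 1 was higher and 0 lower, and the median log2 change was 0.08. The higher gene was ELF5, at 6.62 and 13.6 CPM, while ELF3 was at 84.2 and 74.0 CPM and ELK4 at 102 and 80.6 CPM. SPDEF made up 6.06% of ETS reads in the shControl and 4.08% in the shNRP2 library. EHF had 12435 and 19143 reads, and a higher EHF count lowers the SPDEF share by arithmetic. The CPM ratio of SPDEF was 0.833. In the secretory list downstream of SPDEF, 7 of 14 genes were compared, with a median log2 change of 0.17. MUC5B, a secreted mucin, was the 1 higher gene, with 5 and 67 reads, and 0 genes were lower. It averaged 1 CPM only through the shNRP2 library, and with a mean of at least 5 CPM the higher count was 0. CREB3L4 was at 72.5 and 73.4 CPM and TMEM125 at 51.0 and 57.5 CPM. PACSIN1, the protein-coding gene beside SPDEF, was at 35.2 and 59.5 CPM, 1.69-fold higher (1.54 to 1.86).

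Epithelial genes that grainyhead factors bind did not all go the way of GRHL2. Of 16 compared, 2 were higher, CLDN4 (192 and 337 CPM) and CLDN3 (37.2 and 58.8 CPM), both claudins of tight junctions. RAB25, a GTPase of apical membrane recycling, was the 1 lower gene, at 68.5 and 32.4 CPM, 2.11-fold lower (1.93 to 2.32). CDH1, which encodes E-cadherin, was at 529 and 788 CPM, just short of 1.5-fold, and CLDN7 was at 278 and 294 CPM. Over the list, the middle log2 change was 0.09. The paralog GRHL1 was at 18.5 and 23.9 CPM, a ratio of 1.29 (1.13 to 1.48). GRHL3 was at 1.51 and 2.36 CPM, a ratio whose interval (0.979 to 2.53) includes no difference, and UBP1 was at 159 and 141 CPM. None of the 4 compared relatives passed 1.5-fold, and their median log2 change was 0.21. NCALD, the gene beside GRHL2, was at 2.82 and 4.86 CPM. The CUT class relatives of ONECUT2 were few: ONECUT1 had 4 and 9 reads, ONECUT3 had 0 in both, and CUX1 was at 60.9 and 66.2 CPM. The 2 compared had a median log2 change of 0.07, and neither passed 1.5-fold. FECH, the gene beside ONECUT2, was at 211 and 244 CPM, and ST8SIA3 on the other side had 0 and 1 reads.

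**Figure D5:**
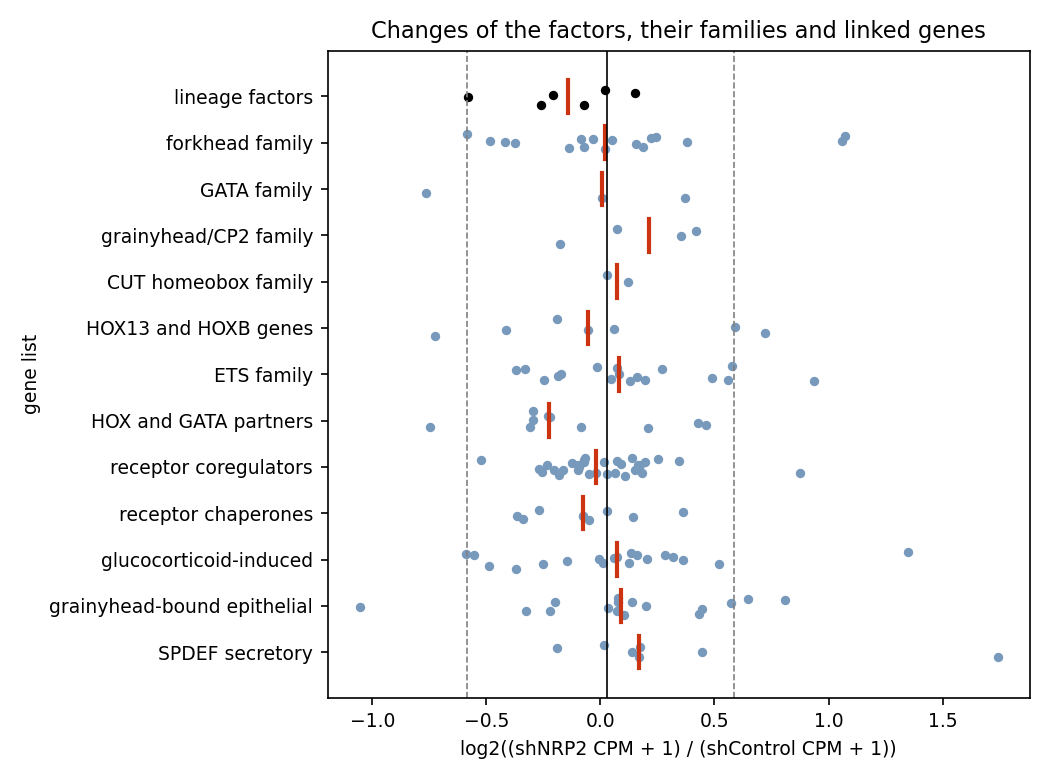
Log2 change on the log2(CPM + 1) scale of each compared gene in 13 lists (points), with list medians (red bars), the median of all genes compared (solid line) and 1.5-fold (dashed lines). The 6 lineage factors (black) have a median of -0.14, and FOXA1 lies at the lower dashed line.

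Genes that respond to glucocorticoids were followed because NR3C1 was nearly absent. Of 22 listed, 19 were compared, 1 was higher and 1 lower, with a median of 0.07 on the log2 scale. ZBTB16, a zinc finger repressor, was at 1.80 and 6.13 CPM, and TSC22D3, which encodes GILZ, stood lower with 784 and 531 reads, 1.52-fold lower (1.36 to 1.70). FKBP5, a receptor co-chaperone that androgens also induce, was at 89.6 and 115 CPM, and MT2A at 145 and 159 CPM. NR3C2, the mineralocorticoid receptor and the closest relative of NR3C1, had more reads than NR3C1 and was at 7.94 and 6.60 CPM, a ratio of 0.832 whose interval (0.659 to 1.05) includes no difference. None of 9 receptor chaperones passed 1.5-fold (median log2 change -0.08); HSP90AA1 was at 3218 and 3048 CPM and HSPA8 at 3189 and 2475 CPM. Of 31 coregulators of steroid receptors, all compared, 1 was higher and 0 lower, with a median of -0.02: PIAS2, a SUMO ligase, was at 35.7 and 66.4 CPM. TLE3, a Groucho corepressor, was at 497 and 346 CPM, and HDAC1, a histone deacetylase, at 381 and 406 CPM.

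The lower level of FOXA1 stood beside higher levels of androgen-induced genes. KLK3, which encodes prostate-specific antigen, had 115 reads in the shControl and 870 in the shNRP2 library (5.60 and 41.0 CPM), and KLK2 was at 16.4 and 92.5 CPM. CA9, a carbonic anhydrase induced by low oxygen, was at 1.36 and 19.2 CPM. Against 5.78% higher and 3.57% lower over all genes compared, 5 of the 14 luminal markers were higher and 0 lower. KLK2 and KLK3 are among the 5. Whether these changes have a part in the level of FOXA1 was not tested. In bulk RNA, fewer cells that express a factor and less RNA per cell cannot be told apart.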

How the data were processed

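RNA was sequenced from 1 shControl and 1 shNRP2 library of C4-2B ENZR cells. The authors deposited a signal for each gene symbol, CPM scaled by TMM per the labels, and it is called CPM here although the columns sum to more than CPM would, which the planned design had not foreseen. The submitters' processing notes name bcl2fastq (2.17), Bowtie2 (2.1.0), RSEM (1.2.15), edgeR and build hg19. No source used here gives their roles, the annotation, read filters or strand. All values (100%) were whole multiples of the value of 1 read, 0.0487 and 0.0472, within a tolerance of 0.01 read, which gave whole reads. The 28 symbols turned into dates (0.181% and 0.184% of reads) were left out.

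Change was log2((shNRP2 CPM + 1)/(shControl CPM + 1)) for genes that averaged 1 CPM or more, and calls were made at 1.5-fold. That scale understates changes of low genes. Folds in the text are plain CPM ratios. Intervals are exact (Clopper-Pearson or Poisson, 95%) and limits for 0 reads use 3 reads. Without molecular identifiers reads are not independent molecules, so both cover counting error alone. The scripts were tested on simulated data. Named were all 8 factors, in each list at most 4 genes with the largest changes past 1.5-fold and 2 more with the highest mean, close paralogs, neighbours in RefSeq, and NRP2, KLK2, KLK3 and CA9. Some genes that the rule names are left out of the text. Other genes named are markers chosen after their values were seen. The factors and the lists were chosen with earlier results of these data known, and lists share some genes. Calculations used Python 3.11.15, scipy 1.17.1 and, for recomputed TMM factors, edgeR 4.0.16 in R 4.3.3. Transcript lengths came from GENCODE release 29, matched by symbol. Alternatives were other pseudocounts, filters, scalings, thresholds and transcript lengths, and, chosen after seeing the data, the exact binomial test.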

Additional observations from a re-analysis of the deposited data

How the results depend on the processing

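Under scaling alternatives 1 of the 6 compared factors, FOXA1, was at least 1.5-fold lower with equal library totals, with the median log2 ratio set to 0, with quantile normalization and with TMM factors recomputed by edgeR, against 0 as deposited. None was at least 1.5-fold higher under any scaling, pseudocount or filter tried. By counting intervals that exclude no difference, 4 factors were lower and 1 higher, and by the exact binomial test on reads, added after seeing the data, 3 were lower and 1 higher. Over the 15 lists together, 198 genes were compared, 16 of them at least 1.5-fold higher and 9 lower. These were 8.08% and 4.55%, against 5.78% and 3.57% of all genes compared. The higher count was 9 with a pseudocount of 5 CPM, 10 with a mean of at least 5 CPM and 5 at a 2-fold threshold. At 2-fold 2 genes were lower. With equal library totals 12 list genes were higher and 12 lower, where 587 and 646 of all 13248 genes compared were. The other scalings gave 15 higher and 10 or 11 lower, and a pseudocount of 0.25 CPM gave 20 and 11. Counting intervals gave 68 higher and 52 lower of the 198, against 32.7% and 24.0% of all genes compared. The exact binomial test gave 67 and 51, against 29.4% and 21.3% of all genes compared. FOXA1 had log2 changes from -0.66 to -0.58, HOXB13 from -0.17 to -0.07, SPDEF from -0.34 to -0.25, ONECUT2 from -0.29 to -0.18 and GRHL2 from 0.07 to 0.15, each in 1 direction; GATA2 ran from -0.06 to 0.02. In the order of levels per length, the longest transcript put 5 factors in the shControl and 3 in the shNRP2 library at another rank, and no division by length put 2 at another rank in each. No paired analysis was possible because each group holds 1 library. Depth limits NR3C1 and FOXA2, with 0 to 13 reads each.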

Other observations

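Among other luminal and epithelial factors, larger decreases were seen. Of 25 compared, 0 were higher and 3 lower, with a median log2 change of 0.03. SOX4, a factor of progenitor states, was at 314 CPM in the shControl and 130 CPM in the shNRP2 library and SOX9 at 26.6 and 14.0 CPM. NFIX, the most abundant of them, was at 1337 and 1289 CPM. Of 27 compared nuclear receptors, 3 were higher and 1 lower, with a median log2 change of 0.03. PPARA and PPARG, receptors for fatty acids, had levels of 18.1 and 33.7 CPM (PPARA) and of 8.52 and 15.6 CPM (PPARG). NR4A1, an immediate early receptor, was at 18.1 and 28.6 CPM, and NR2F2, which encodes COUP-TFII, at 91.8 and 57.4 CPM. ESRRA was at 206 and 227 CPM and NR2F6 at 136 and 155 CPM.

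Of 27 neural and neuroendocrine factors listed, 11 were compared, 3 were higher and 0 lower, with a median log2 change of 0.20. POU2F3, the tuft cell factor, had 19 and 62 reads and averaged 1 CPM only through the shNRP2 library. With a pseudocount of 5 CPM the higher count was 1. ASCL2 was at 5.50 and 11.2 CPM and PEG10 at 4.28 and 7.64 CPM. REST, a repressor of neuronal genes, was at 76.9 and 73.1 CPM and HES6 at 32.7 and 35.8 CPM. Over the 2 libraries, the gene nearest in both levels to HOXB13 was CAPRIN1, to GATA2 MYO1C, to SPDEF SETD1B, to GRHL2 PMPCB and to ONECUT2 RAD51D, at distances from 0.00876 to 0.0238 on the log2(CPM + 1) scale.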
